A study of Mus musculus with 13 samples.

Results

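The Fanconi anemia pathway and homologous recombination repair DNA that is cross-linked or broken. A core complex of FANC proteins attaches ubiquitin to the FANCD2-FANCI pair at a cross-link, nucleases open the lesion, and the break is then resected to single strands that invade an intact template, with help from BRCA1, PALB2, BRCA2, several paralog complexes and the RAD54 motor proteins. Joined DNA is finally separated by the BLM helicase or by nucleases such as MUS81-EME1. Homologous recombination uses the sister chromatid as its template and is therefore largely restricted to the S and G2 phases of the cell cycle.

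The genes described here were the 33 members of a list of Fanconi and homologous recombination genes, taken by symbol from a table of 35967 gene symbols, and all 33 were present. They were grouped by role into the core complex (8 genes), the FANCD2-FANCI pair, BRCA proteins and partners (5 genes), paralog complexes (Rad51b, Rad51c, Rad51d, Xrcc2 and Xrcc3), strand exchange factors (3 genes), end resection (5 genes) and junction enzymes (5 genes).

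The RNA came from glomeruli isolated from the kidneys of wildtype Balb/c mice that had received 2 mg of rabbit IgG by intraperitoneal injection. The control group (n = 5) received preimmune rabbit IgG, and control mice of days 1 and 5 form 1 group, without the day of each mouse being given. The MN groups received rabbit IgG against THSD7A, a podocyte membrane protein that is an autoantigen in human membranous nephropathy (MN), and were examined at day 1 (n = 4) or day 5 (n = 4). Male mice were used in this model according to the study's methods, which give an age with the knockout lines and their littermates and not separately for the sequenced mice. Each library came from 1 mouse, so the spread between libraries includes differences between animals. Whole glomeruli hold podocytes, endothelial, mesangial and parietal cells, so less RNA per cell and fewer cells of a type cannot be told apart.

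The podocyte markers summed to between 7779 and 10549 TPM (transcript abundance scaled to a fixed library total) in the 13 libraries, and the glomerular endothelial markers to between 4821 and 6105 TPM, so the labelled tissue was present in every library. The 8 proximal tubule markers summed to 2268 to 8226 TPM in controls, 3955 to 7201 TPM at day 1 and 2926 to 3547 TPM at day 5, so tubular RNA also differed between libraries. The 9 leukocyte markers summed to only 28.2 to 64.7 TPM over all libraries. The sequencing depth of the libraries is unknown, since the table holds TPM without counts.

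The list had a steep range of levels. In controls the mean ran from 0.183 ± 0.0575 TPM (SD, n = 5) for Eme1 to 32.7 ± 7.15 TPM for Mus81, although both encode subunits of the same nuclease. TPM is a level per transcript length, so these levels can be set side by side. Of the 33 genes, 23 had at least 1 TPM in every library, and 7 were under 1 TPM in every control library, namely Fancd2, Brca1, Bard1, Brip1, Rad51b, Exo1 and Eme1. No gene of the list was at 0 in any library, and values under 1 TPM are regarded as low.

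**Figure D1:**
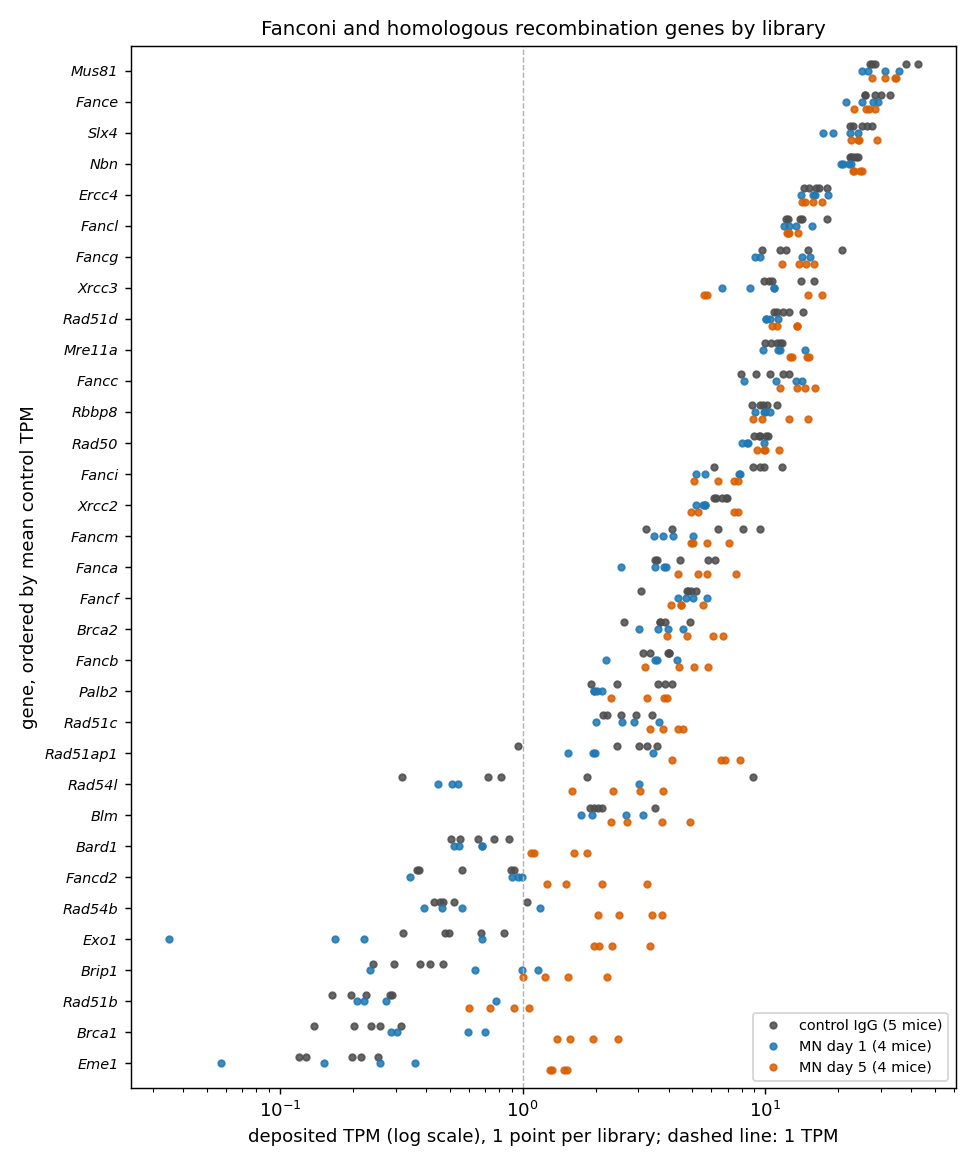
Deposited TPM (log axis) of the 33 genes in each of the 13 libraries, ordered by mean control TPM, with grey points for control, blue for MN day 1 and orange for MN day 5. The orange points of the 7 genes under 1 TPM in every control library lie to the right of the grey ones, whereas those of abundant genes such as Mus81, Slx4 and Nbn overlap them.

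To show the DNA in front of genes that were low in controls and higher in every day 5 library, the 100 bases before the start of the Ensembl canonical transcript were read from GRCm39 for 4 such genes and for Mus81, the abundant partner of Eme1. Those of Brca1, Fancd2, Rad54b, Rad51ap1 and Eme1 hold a protein-coding exon of the same or a neighbouring gene and are not printed. Each run is given 5′ to 3′ on the gene's strand, and capitals mark letters found on either strand. TTTGAA is the cell cycle homology region element, CCAAT is the element of that name, and the E2F element was searched as TTCCCGC and, in its second form, as TTGGCGC.
Brip1 (chr11:86092044-86092143, minus strand): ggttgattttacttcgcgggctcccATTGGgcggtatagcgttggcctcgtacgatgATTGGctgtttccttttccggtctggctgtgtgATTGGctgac
Bard1 (chr1:71142306-71142405, minus strand): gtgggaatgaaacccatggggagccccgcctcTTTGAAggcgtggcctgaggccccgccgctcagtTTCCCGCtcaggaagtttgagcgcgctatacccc
Rad51b (chr12:79343112-79343211, plus strand): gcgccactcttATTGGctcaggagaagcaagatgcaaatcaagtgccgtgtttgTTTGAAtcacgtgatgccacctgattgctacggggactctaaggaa
Exo1 (chr1:175708043-175708142, plus strand): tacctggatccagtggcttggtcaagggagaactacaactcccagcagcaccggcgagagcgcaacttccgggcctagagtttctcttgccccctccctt
Mus81 (chr19:5538449-5538548, minus strand): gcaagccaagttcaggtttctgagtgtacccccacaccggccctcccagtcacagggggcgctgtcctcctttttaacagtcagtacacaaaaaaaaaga
The Brip1 run held 3 CCAAT letters, all on the opposite strand, which read ATTGG as printed. The Bard1 run held TTTGAA and TTCCCGC, the Rad51b run TTTGAA and CCAAT, and the Exo1 and Mus81 runs none of these letters. Over 250 bases before to 50 bases after the start, the E2F letters were present in 10 of the 33 genes, compared with 8.14% of 21757 protein-coding genes. CCAAT was present in 19 of 33 compared with 39.9% of all, and TTTGAA in 5 of 33 compared with 17.1%. Of the 7 genes called as higher at day 5 (below), 2 held the E2F letters, 4 CCAAT and 1 TTTGAA. Of the other 26 members, 8 held the E2F letters, 15 CCAAT and 4 TTTGAA. The 50 bases after the start were added once a search of the 250 upstream bases alone had been seen, in which the E2F letters were found in 4 of the 33 genes and in 6.57% of all genes. A match of letters is a description of the sequence and does not show that a factor binds there.

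At day 5 the members that differed most from controls came from several steps of the pathway. Brca1, Rad54b, Eme1, Exo1, Brip1, Rad51ap1 and Fancd2 were called as higher, and none of the 33 was called as lower. A call required an adjusted p below 0.05 (limma across 14322 genes, Benjamini-Hochberg) and a change of more than 0.5 on the log2(scaled TPM + 0.5) scale, which understates the change of a gene with a low TPM. By this rule 2.42% of all tested genes were called as higher at day 5 and 0.789% as lower. Rad51b did not reach the minimum of 1 TPM in 4 libraries and was not tested. With no minimum, limma called Rad51b (0.86, adjusted p = 0.0169) and Bard1 (adjusted p = 0.0183) as higher, while Rad51ap1 missed the threshold (adjusted p = 0.0619). Of the 32 tested members, 8 reached that minimum only with day 5 libraries, and 6 of the 7 called genes were among these 8. The minimum therefore selected for the difference, and the count of 7 cannot be read against the 2.42% as evidence about the list. Of the 24 that reached it without day 5, 1 was called, Rad51ap1. Among the 23 genes with at least 1 TPM in every library, tested alone with the other genes of that kind, none was called by limma, and none of the 7 called genes was in this set. Leaving out day 5 replicate 1, 2, 3 or 4 gave 3, 1, 2 and 2 called genes, and some low genes then missed the minimum. When the genes tested were kept and any 1 of the 13 libraries was left out, 5 to 8 were called, and Brca1, Rad54b, Exo1 and Eme1 were called each time.

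The ranges of the libraries were compared in all 33 genes. In 10 of the 33 genes every day 5 library lay above every control library, and in none did every day 5 library lie below, where 5.07% of the genes that passed the minimum lay wholly above and 5.71% wholly below. Rad51b, counted among the 10, did not pass it. These 10 were Fancd2, Brca1, Bard1, Brip1, Rad51b, Rad51ap1, Rad54b, Mre11a, Exo1 and Eme1. All 7 genes that were under 1 TPM in every control library were among them, as were 3 of the other 26. Fancd2, Brca1, Bard1, Brip1, Rad54b, Exo1 and Eme1 passed the minimum only with day 5 libraries, and Rad51ap1 and Mre11a passed it without them. The count of 10 therefore cannot be read against the 5.07% as evidence about the list. The median change of the 32 tested genes was 0.26 on the log2 scale, compared with -0.003 over all tested genes, and this median includes the 8 genes that the minimum admitted through day 5. It was 0.084 over the 23 genes with at least 1 TPM in every library, and 0.12, 0.10, 0.13 and 0.11 without day 5 replicates 1, 2, 3 and 4. Some low genes missed the minimum in these fits without a day 5 library. With the genes tested kept and any 1 library left out, the median was 0.19 to 0.30.

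Brca1 encodes a ubiquitin ligase that promotes end resection, and it showed one of the largest differences. Its TPM was 0.236, 0.317, 0.138, 0.259 and 0.202 in the 5 control libraries and 0.597, 0.287, 0.698 and 0.304 in the 4 libraries of day 1, and it was 1.39, 1.57, 2.47 and 1.96 at day 5. All 4 day 5 libraries lay above all others, and 2 of the day 1 libraries lay above all controls. The ratio of the mean TPM of day 5 to control was 8.01, and the log2 change was 1.68 ± 0.23 (SE), adjusted p = 0.00064 (limma). The change at day 1 was 0.41 ± 0.23, adjusted p = 0.482 (limma), and did not pass.

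BARD1 forms the obligate heterodimer with BRCA1. Bard1 measured 0.654, 0.877, 0.506, 0.765 and 0.552 TPM in controls, 0.677, 0.520, 0.679 and 0.545 TPM at day 1 and 1.11, 1.08, 1.84 and 1.63 TPM at day 5. The day 5 libraries again lay above all others, but the log2 change of 0.72 ± 0.20 had an adjusted p of 0.0516 (limma) and missed the threshold. The log2 ratio of Brca1 to Bard1 TPM within a library ran from -1.88 to -1.45 in controls, from -0.86 to 0.04 at day 1 and from 0.26 to 0.54 at day 5. Brca1 was thus below Bard1 in every control library and above it in every day 5 library.

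BRIP1 is a helicase that binds BRCA1. Brip1 was at 0.294, 0.416, 0.243, 0.472 and 0.376 TPM in controls, 0.639, 0.993, 1.16 and 0.234 TPM at day 1 and 1.00, 2.24, 1.54 and 1.24 TPM at day 5, a log2 change at day 5 of 1.21 ± 0.28 with an adjusted p of 0.0191 (limma). The day 5 libraries lay above the controls but overlapped those of day 1, of which 3 lay above all controls and 1 below all of them. Without day 5 replicate 2 the day 5 call was lost, with an adjusted p of 0.0775 (limma, genes tested kept). At day 1 the log2 change of Brip1 was 0.51 ± 0.28, the most positive of the 32 genes, with a 95% interval of -0.09 to 1.11 and an adjusted p of 0.47 (limma).

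The remaining genes of this role were not called. Brca2, which acts after resection to start strand exchange, had 2.61 to 4.88 TPM in controls and 3.92 to 6.73 TPM at day 5, with a log2 change of 0.50 ± 0.18, adjusted p = 0.134 (limma). Palb2, which bridges BRCA1 and BRCA2, had 1.91 to 4.12 TPM in controls, 1.96 to 2.12 TPM at day 1 and 2.31 to 3.93 TPM at day 5. The log2 change of Palb2 at day 1, -0.47 ± 0.21, had an adjusted p of 0.382 (limma).

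FANCD2 and FANCI are ubiquitinated together and clamp DNA as a pair, but their transcripts differed in level and only Fancd2 was called. Fancd2 was at 0.565, 0.899, 0.375, 0.921 and 0.368 TPM in controls, 0.999, 0.956, 0.342 and 0.905 TPM at day 1 and 1.26, 1.51, 3.26 and 2.12 TPM at day 5. Its log2 change at day 5 was 1.17 ± 0.28, adjusted p = 0.0246 (limma), with all 4 libraries above the other 9. The call was lost in 5 of the 13 fits that left out 1 library with the genes tested kept (control replicate 1, 3 or 5, or day 5 replicate 3 or 4), with an adjusted p of up to 0.0728 (limma). Fanci was at 11.7, 6.12, 9.47, 8.91 and 9.88 TPM in controls, 5.20, 5.66, 7.80 and 7.88 TPM at day 1 and 5.08, 6.40, 7.45 and 7.72 TPM at day 5. Its log2 change was -0.40 ± 0.18 at day 1 and -0.40 ± 0.18 at day 5, with adjusted p values of 0.394 and 0.244 (limma), and both MN groups overlapped the controls. Both contrasts share the 5 control libraries. Within a library the log2 ratio of Fancd2 to Fanci TPM ran from -4.75 to -2.77 in controls and from -2.08 to -1.19 at day 5, so Fancd2 stayed below Fanci in every library of these groups.

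**Figure D2:**
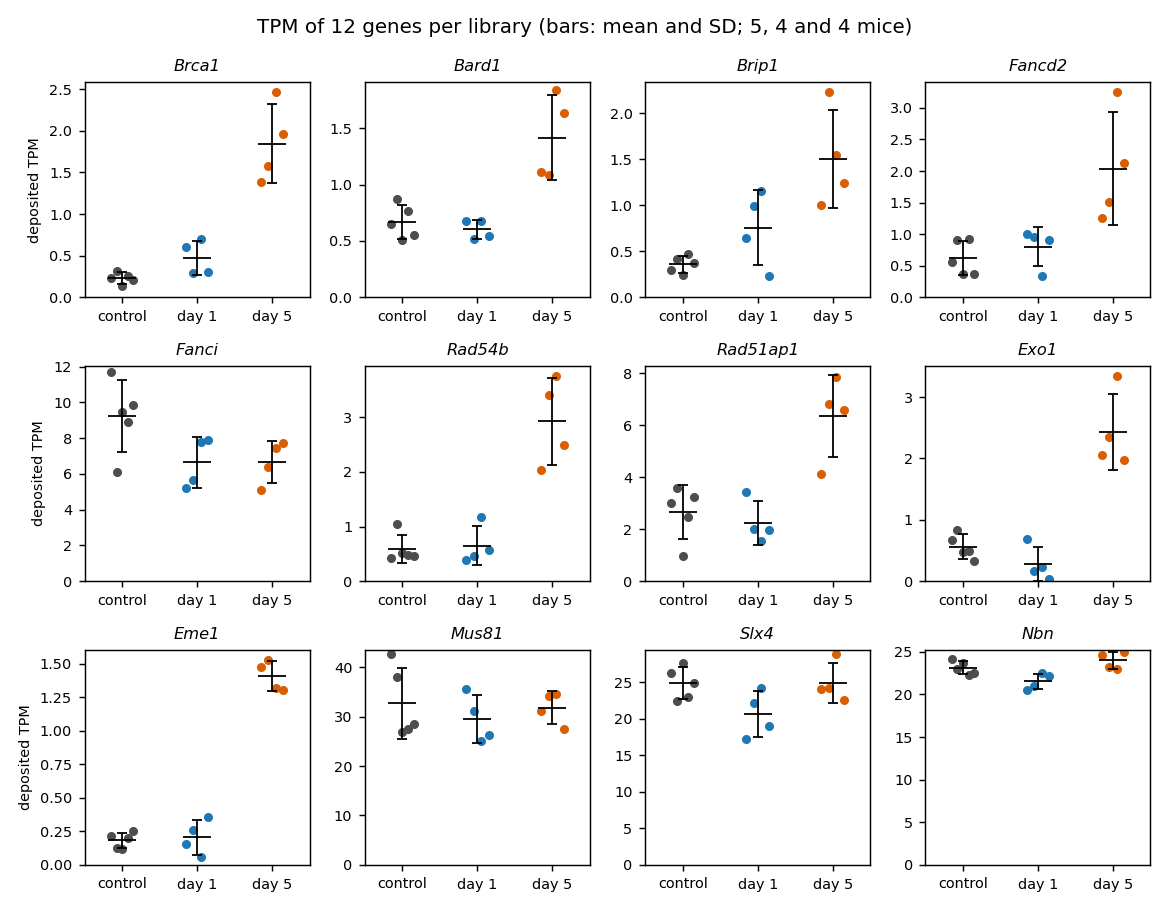
Deposited TPM (linear axes from 0) of 12 of the genes in control, MN day 1 and MN day 5 libraries, 1 point per mouse, with the mean and SD as bars (n = 5, 4 and 4). Brca1, Fancd2, Rad54b, Rad51ap1, Exo1 and Eme1 have all day 5 points above the rest, whereas Fanci, Mus81 and Slx4 have overlapping groups.

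The 8 core complex genes showed no call at either day. Their log2 changes at day 5 ran from -0.10 for Fancl, the ubiquitin ligase subunit, to 0.45 for Fancc. Fancc had 7.97 to 12.5 TPM in controls and 11.5 to 16.1 TPM at day 5, with an adjusted p of 0.131 (limma) and a 95% interval of 0.10 to 0.79. Fance, which connects the complex to FANCD2, was the most abundant at 28.5 ± 2.97 TPM in controls (SD, n = 5), 25.8 ± 3.39 TPM at day 1 and 26.1 ± 2.12 TPM at day 5 (n = 4 each). Its 95% interval at day 5, -0.30 to 0.13, excludes a change of 0.5 in either direction, as do those of Fancl (-0.33 to 0.13) and Fancf (-0.24 to 0.38). Fancg (-0.36 to 0.56) and the translocase gene Fancm (-0.54 to 0.52) had intervals too wide to exclude such a change. Fanca and Fancb had log2 changes of 0.30 ± 0.20 and 0.30 ± 0.18, with adjusted p values of 0.437 and 0.397 (limma).

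The paralog complexes support strand exchange. Rad51b, the lowest of the 5, had 0.196, 0.290, 0.164, 0.226 and 0.284 TPM in controls, 0.778, 0.223, 0.273 and 0.207 TPM at day 1 and 0.604, 0.736, 1.06 and 0.920 TPM at day 5. Its day 5 libraries lay above all controls, and 1 day 1 library exceeded 2 of the day 5 libraries. The other paralogs were above 1 TPM in every library. Rad51c measured 2.53, 3.43, 2.94, 2.23 and 2.14 TPM in controls and 3.79, 3.35, 4.60 and 4.37 TPM at day 5, and its log2 change of 0.56 ± 0.17 missed the threshold with an adjusted p of 0.0692 (limma). Rad51d (0.04 ± 0.09) and Xrcc2 (-0.04 ± 0.13) had small log2 changes at day 5, and their 95% intervals lay within 0.5 of 0. Xrcc2 was the only member for which every day 1 library lay below every control library, at 5.54, 5.19, 5.65 and 5.63 TPM against 6.95, 6.28, 6.61, 6.90 and 6.18 TPM, where 3.32% of all tested genes did so. In no member did every day 1 library lie above every control library, as 0.908% of tested genes did. The day 1 change of Xrcc2, -0.20 ± 0.13, had an adjusted p of 0.551 (limma). Xrcc3 was divided at day 5, with libraries at 5.62, 5.75, 14.9 and 17.2 TPM against 9.91 to 15.9 TPM in controls, so 2 libraries lay below all controls and 1 above.

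Strand exchange factors stimulate strand invasion and chromatin remodelling. Rad54b, a RAD54 family motor protein, had 0.430, 1.04, 0.520, 0.470 and 0.458 TPM in controls, 0.393, 0.464, 1.18 and 0.562 TPM at day 1 and 2.04, 3.42, 3.77 and 2.50 TPM at day 5. All 4 day 5 libraries exceeded all others. The log2 change was 1.68 ± 0.25, adjusted p = 0.0012 (limma), and the ratio of means was 5.02. Rad54b shares 5495 of its 12936 exonic bases with other genes, 4358 of them with Fsbp on the same strand, and reads from shared exons could not be assigned to 1 gene by sequence alone.

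Rad51ap1, whose product enhances joint formation between DNA molecules, was the called gene with the highest level, at 3.02, 3.57, 0.956, 2.46 and 3.25 TPM in controls, 3.44, 1.99, 1.53 and 1.95 TPM at day 1 and 4.13, 6.83, 7.84 and 6.57 TPM at day 5. The log2 change at day 5 was 1.20 ± 0.30, adjusted p = 0.0289 (limma), and day 5 did not overlap the other groups. The call was lost without control replicate 4 or day 5 replicate 2, 3 or 4, with an adjusted p of up to 0.0878 (limma, genes tested kept). Rad54l, the RAD54 homolog itself, was uneven within groups, with 8.90, 1.84, 0.719, 0.812 and 0.317 TPM in controls, 0.511, 3.004, 0.446 and 0.540 TPM at day 1 and 3.80, 1.60, 3.04 and 2.36 TPM at day 5. The 95% interval of its day 5 change, -0.64 to 2.02, was the widest of the list.

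End resection produces the single-stranded DNA needed for strand invasion. Exo1, the long-range exonuclease, had 0.675, 0.838, 0.477, 0.496 and 0.322 TPM in controls, 0.681, 0.169, 0.222 and 0.0348 TPM at day 1 and 2.06, 2.34, 3.34 and 1.97 TPM at day 5. Its day 5 libraries lay above all others, with a log2 change of 1.48 ± 0.26, adjusted p = 0.00403 (limma), while 3 of the 4 day 1 libraries lay below all controls. The 3 genes of the MRE11-RAD50-NBN complex, which makes the first cut, were abundant, and none was called. Mre11a measured 11.2, 9.998, 11.5, 11.7 and 10.6 TPM in controls and 15.2, 12.9, 14.8 and 12.6 TPM at day 5. Its day 5 libraries lay above all controls, but the log2 change of 0.36 ± 0.11 was under 0.5 and had an adjusted p of 0.0766 (limma). Rad50 (-0.09 to 0.29) and Nbn (-0.05 to 0.21) had day 5 intervals within 0.5 of 0, and so did Rbbp8 (-0.04 to 0.48), the gene for the resection factor CtIP.

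Among the junction enzymes 1 gene was called. Eme1, the regulatory subunit of the MUS81 nuclease, had 0.215, 0.128, 0.120, 0.199 and 0.253 TPM in controls, 0.152, 0.257, 0.0571 and 0.359 TPM at day 1 and 1.48, 1.53, 1.32 and 1.30 TPM at day 5. The day 5 libraries were tightly grouped and lay above all others, with a ratio of means of 7.69, a log2 change of 1.50 ± 0.23 and an adjusted p of 0.00148 (limma). Eme1 shares 1420 of its 2841 exonic bases with neighbours on the opposite strand, mainly Lrrc59, and the strandedness of the libraries was not stated. Mus81, the catalytic subunit, measured 27.0 to 42.6 TPM in controls and 27.4 to 34.6 TPM at day 5, with a 95% interval of the log2 change of -0.30 to 0.33. The log2 ratio of Eme1 to Mus81 TPM ran from -8.22 to -6.82 in controls, from -8.78 to -6.20 at day 1 and from -4.71 to -4.40 at day 5, so Eme1 remained far below Mus81 in every library.

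The scaffold gene Slx4 and the nuclease gene Ercc4 had day 5 intervals of -0.19 to 0.26 and -0.20 to 0.16. Both therefore excluded a log2 change of 0.5. Blm, the helicase that dissolves double Holliday junctions, had 1.89, 2.12, 3.50, 2.04 and 1.96 TPM in controls and 2.31, 2.68, 4.92 and 3.76 TPM at day 5, with a log2 change of 0.49 ± 0.23 and an adjusted p of 0.244 (limma). In all, 11 of the 32 tested genes had a day 5 interval within 0.5 of 0.

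**Figure D3:**
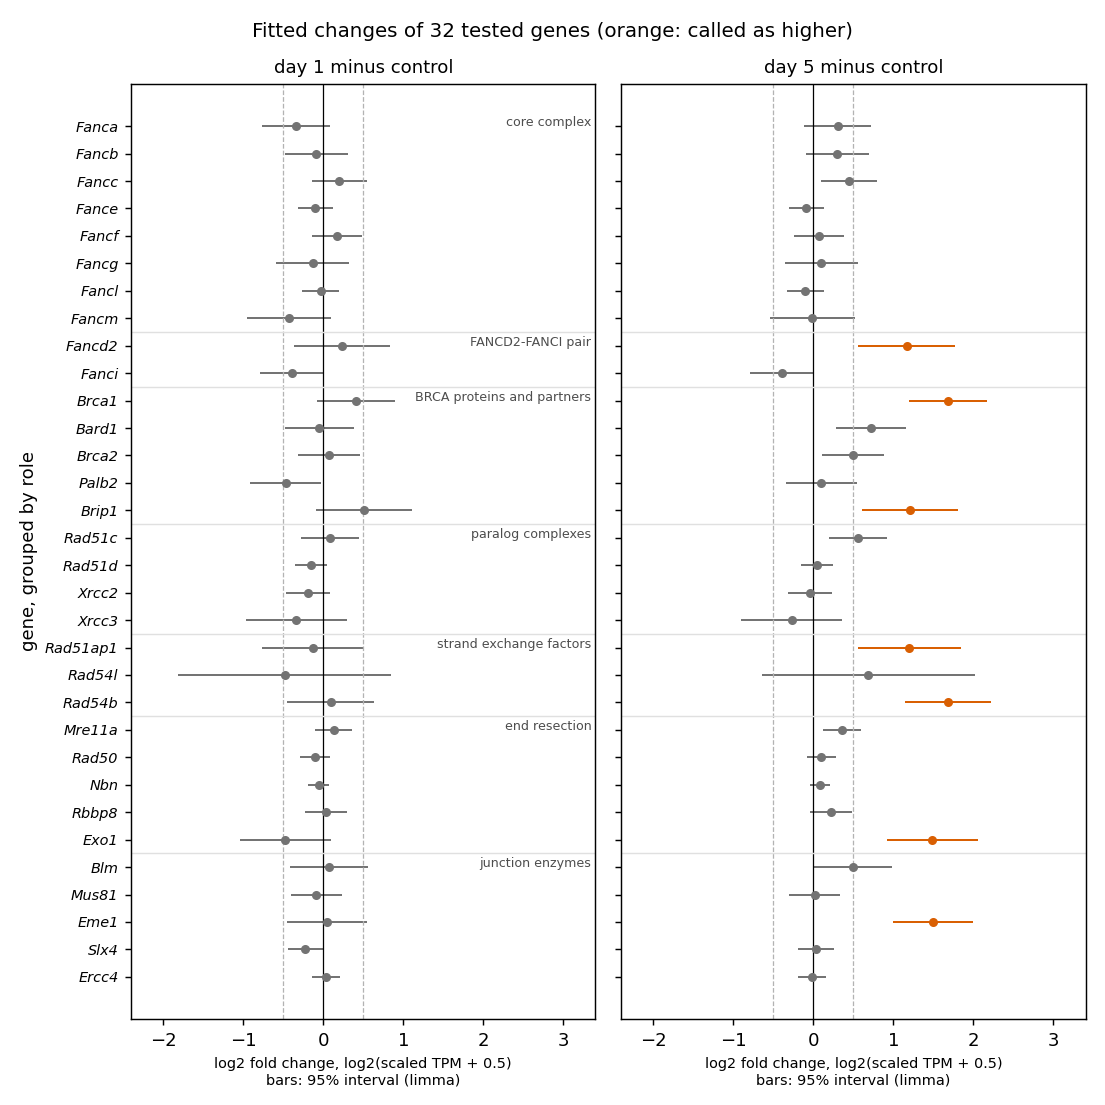
Log2 fold change on the log2(scaled TPM + 0.5) scale of the 32 tested genes at day 1 (left) and day 5 (right) against the same 5 control libraries, with 95% intervals from limma and genes grouped by role. The 7 genes called as higher (orange) occur on the right only, at 1.17 to 1.68.

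At day 1 none of the 32 tested genes was called in either direction, where 0.0559% of all tested genes were called as higher and 0.0349% as lower. With an unadjusted p below 0.05, limma gave 3 of these genes and 1799 of 14322 overall. The median change of the tested genes was -0.07 on the log2 scale, and 16 of them had an interval within 0.5 of 0. The proximal tubule markers all had positive log2 changes at day 1, with a median of 0.71, and their part in the day 1 values was not tested.

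The direct comparison of day 5 with day 1 called 5 genes as higher and none as lower, where 1.41% of all tested genes were called as higher and 0.398% as lower. The log2 differences were 1.96 ± 0.28 for Exo1, 1.59 ± 0.26 for Rad54b, 1.45 ± 0.24 for Eme1, 1.33 ± 0.31 for Rad51ap1 and 1.27 ± 0.24 for Brca1. Their adjusted p values (limma, Benjamini-Hochberg) were 0.00133, 0.00455, 0.00482, 0.0422 and 0.0113 in that order. Exo1, Rad54b, Eme1 and Brca1 reached the minimum of 1 TPM in 4 libraries only with day 5 libraries. The count of 5 therefore cannot be read against the 1.41% as evidence about the list. Fancd2 and Brip1, called against controls, differed from day 1 by 0.93 ± 0.29 and 0.70 ± 0.29 with adjusted p values of 0.137 and 0.265 (limma), so their difference between days did not pass. In 10 of the 33 genes every day 5 library lay above every day 1 library, and in none did every library lie below, where 6.12% of tested genes lay wholly above and 4.93% wholly below. These were Fanca, Fancd2, Brca1, Bard1, Palb2, Rad51ap1, Rad54b, Nbn, Exo1 and Eme1. Of these, Fancd2, Brca1, Bard1, Rad54b, Exo1 and Eme1 reached the minimum only with day 5 libraries. The count of 10 therefore cannot be read against the 6.12% either. The call of Rad51ap1 between the days was lost in 8 of the 13 fits that left out 1 library with the genes tested kept (control replicate 1 or 4, or replicate 2, 3 or 4 of day 1 or day 5), with an adjusted p of up to 0.12 (limma). It was also lost in 5 other alternatives, the tubule covariate included, with an adjusted p of up to 0.135 (limma). With a proximal tubule score as covariate, chosen after the data were seen, 3 genes were called between the days (Fanca, Exo1 and Eme1), while Rad51ap1 was lost and Brca1 and Rad54b had adjusted p values of 0.102 and 0.064 (limma). The same covariate left 7 genes called against controls. Leaving out day 5 replicate 1, 2, 3 or 4 gave 2, 1, 1 and 1 genes called between the days, and 4 to 5 were called when the genes tested were kept.

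The other genes of the pathway were taken from a list of 46 accessory Fanconi and homologous recombination genes, of which 45 were tested. At day 5, limma called 3 of them (6.67%) as higher and 0 as lower, where 2.42% of all tested genes were called as higher. Fignl1, encoding a AAA ATPase, changed by 1.95 ± 0.31, Ube2t, the ubiquitin-conjugating enzyme of the core complex, by 1.86 ± 0.28, and the junction resolvase gene Gen1 by 1.36 ± 0.23. Their adjusted p values were 0.00196, 0.0012 and 0.00316 (limma). Against day 1 the same 3 genes and Mms22l (1.11 ± 0.24, adjusted p = 0.0286, limma) were called. Fignl1 and Gen1 reached the minimum of 1 TPM in 4 libraries only with day 5 libraries. Neither count can therefore be read against the share of all genes as evidence about this list. The median log2 change of the 45 genes at day 5 was 0.07.

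Calls in other repair pathways are given beside the 2.42% of all tested genes called as higher at day 5. None of 16 end joining genes and none of 7 mismatch repair genes was called at day 5, with median log2 changes of 0.01 in both lists. At that share, lists of this length can hold no called gene. Of 29 excision repair genes 2 (6.90%) were called as higher at day 5, and the list's median was -0.02. These were the glycosylase genes Neil3 (2.23 ± 0.34, adjusted p = 0.00154, limma) and Ung (1.25 ± 0.26, adjusted p = 0.0125, limma). Ung also belongs to the S phase list below and is counted in both. Of 22 damage checkpoint genes 3 (13.6%) were called as higher at day 5. These were the replication checkpoint adaptor Clspn (1.71 ± 0.23), the G2 regulator Gtse1 (1.57 ± 0.22) and the histone variant gene H2ax (0.68 ± 0.10), with adjusted p values of 0.000592, 0.00075 and 0.00125 (limma). Against day 1 these 3 and Topbp1, the activator of ATR, were called, with a log2 difference of 0.50 ± 0.11 for Topbp1 and an adjusted p of 0.0239 (limma). The kinase genes Atm and Atr, which signal breaks and stalled forks, had log2 changes of -0.66 ± 0.25 and -0.13 ± 0.13, with adjusted p values of 0.151 and 0.664 (limma). None of the genes in these 4 lists was called at day 1. Neil3 and Gtse1 reached the minimum of 1 TPM in 4 libraries only with day 5 libraries. The counts of excision repair and damage checkpoint genes therefore cannot be read against the 2.42% as evidence about these lists.

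Cell cycle genes moved with the called members. Of 42 S phase genes 25 (59.5%) were called as higher at day 5, where 2.42% of all tested genes were. The median log2 change of the list was 0.83. The largest change was that of Rrm2 (2.69 ± 0.22, adjusted p = 2.06e-05, limma), a subunit of ribonucleotide reductase. The next largest were Uhrf1 (2.04), the helicase gene Mcm6 (1.99), the repressor gene E2f8 (1.97), the licensing factor gene Cdc6 (1.90) and the activator gene E2f2 (1.63). Of 40 G2 and M phase genes 38 were called as higher at day 5 with a median of 2.07. The largest log2 changes were those of the kinase gene Pbk (3.37), Ube2c (3.26) of the anaphase ubiquitin machinery, the spindle gene Prc1 (3.25), Birc5 (2.99), the proliferation marker Mki67 (2.98) and the cyclin gene Ccnb2 (2.93). No gene of either list was called at day 1. Genes of these lists that reached the minimum of 1 TPM in 4 libraries only with day 5 libraries are not separated here. Neither count can therefore be read against the 2.42% as evidence about these lists. The G2 and M phase genes summed to 107 to 154 TPM in controls, 108 to 131 TPM at day 1 and 373 to 653 TPM at day 5, and the S phase genes to 482 to 554 TPM, 473 to 564 TPM and 696 to 883 TPM. Both sums were higher in every day 5 library than in any other library, as was the TPM of Brca1, Fancd2, Rad51ap1, Rad54b, Exo1 and Eme1, and the part of cell cycle genes in the values of the members was not tested. The 5 parietal epithelial markers also summed higher in every day 5 library (66.1 to 71.1 TPM) than in controls (53.1 to 59.4 TPM) or at day 1 (55.9 to 64.8 TPM). The most abundant of them made up most of this sum, which therefore does not describe all 5. Against controls, 4 had positive log2 changes at day 5 and 1 a negative one, and 1 was called as higher. Against day 1, 3 were positive and 2 negative, with none called. All 8 glomerular endothelial markers had positive log2 changes at day 5 with none called, and their sum at day 5, 5726 to 6105 TPM, overlapped that of controls, 4826 to 6100 TPM. Of the 8 mesangial and contractile markers, 7 had positive log2 changes at day 5 and 1 a negative one, and 1 was called as higher. Their sum at day 5, 1939 to 2566 TPM, also overlapped that of controls, 1310 to 2068 TPM. The part of these cells was not tested. The lists share no gene with the 33.

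**Figure D4:**
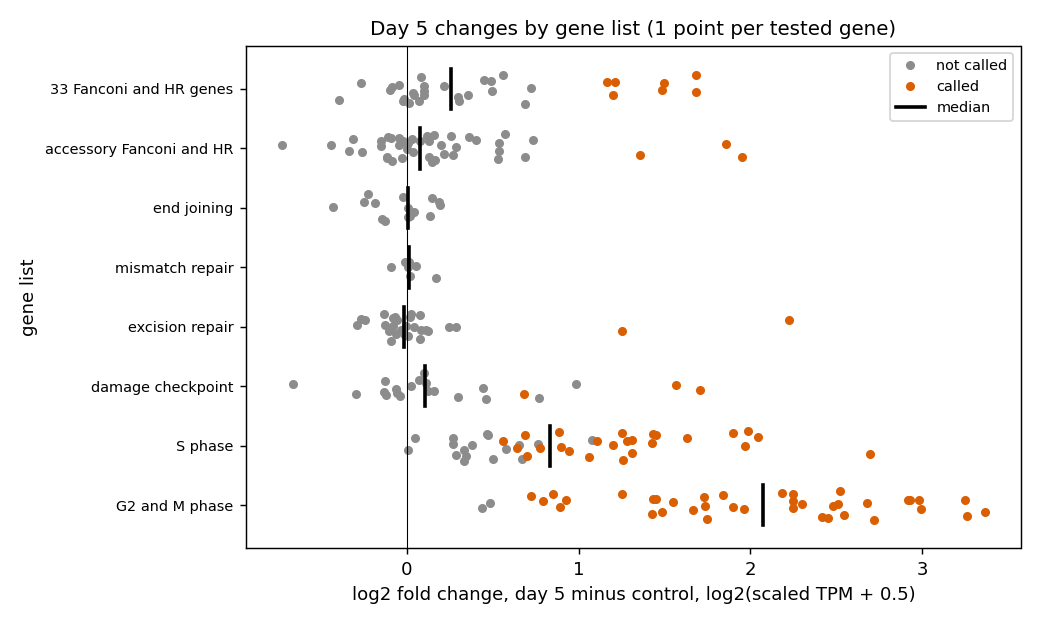
Log2 fold change at day 5 against control on the log2(scaled TPM + 0.5) scale, 1 point per tested gene and 1 row per gene list, with called genes in orange and the median as a black line. The medians were 0.26 for the Fanconi and homologous recombination (HR) genes (0.084 over those with at least 1 TPM in every library), 0.01 for end joining and mismatch repair, 0.83 for S phase and 2.07 for G2 and M phase.

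In the mouse genome (GRCm39, GENCODE vM39 annotation) the called genes lie on 4 chromosomes, with Brca1 at chr11:101379577-101442781, Brip1 at chr11:85948957-86092592 and Eme1 at chr11:94535822-94544812, Fancd2 at chr6:113508412-113573982 and Rad51ap1 at chr6:126899446-126916587, Rad54b at chr4:11558862-11615814 and Exo1 at chr1:175708143-175741055. Brca1 shares no exonic base with another annotated gene. Exo1 shares 487 of 8886 exonic bases, Brip1 286 of 10000, Rad51ap1 395 of 5417 and Fancd2 1786 of 11408. Fanci shares 1064 of its 5837 exonic bases with Polg on the opposite strand, and Xrcc3 1898 of 4373 with Klc1. For Rad54l the shared part is 2354 of 10617 bases, with Lrrc41.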

How the data were processed

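Bulk RNA-Seq of isolated mouse glomeruli was analysed (control n = 5, MN day 1 n = 4, MN day 5 n = 4). The deposited values are TPM per gene symbol, made by the authors with kallisto 0.46.2 after Trimmomatic 0.39 and FastQC 0.11.9, per the submitters' processing notes, on GRCm39 and Ensembl 104. The authors tested counts with DESeq2, and counts were not used here. TPM carries no depth, so no counting interval is given, and the number of mice limits precision.

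TPM was divided by median-of-ratios factors (0.954 to 1.04), and log2(scaled TPM + 0.5) was fitted with limma 3.58.1 (trend, R 4.3.3) over all 3 groups. Symbols with at least 1 TPM in at least 4 libraries were tested (14322 of 35967), with Benjamini-Hochberg adjustment over all of them. A call needed an adjusted p below 0.05 and a log2 change above 0.5 in size. All tests were two-sided. All 33 members are named, and of the other lists genes called in a contrast (at most 6 per list and contrast; for the cell cycle lists those at day 5). A gene that the rule also names is not reported here. Atm and Atr fall outside this rule and were chosen after their values were seen. The members and lists were chosen with earlier results of these data known. The fit was tested on simulated data. Loci and sequences were read from GRCm39 with GENCODE vM39. Alternatives covered the pseudocount (0.1 and 1), scaling, filters, trend, weights, the groups fitted, a replicate block, a tubule covariate and leaving out each library.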

Additional observations from a re-analysis of the deposited data

Results flagged for a closer look

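In 96 sets of values (32 genes in 3 groups), 6 had 1 library far from the others of its group, and chance gives about 1 in 20. Rad54l stood out in control replicate 1, at 8.90 TPM against 0.317 to 1.84 TPM in the other controls, and in day 1 replicate 2, at 3.004 TPM against 0.446 to 0.540 TPM. Fancf was at 3.06 TPM in control replicate 5 against 4.75 to 5.17 TPM, and that library also had the highest sum of proximal tubule markers (8226 TPM). Fancd2 was at 0.342 TPM in day 1 replicate 3 against 0.905 to 0.999 TPM, and the lowest control library was at 0.368 TPM. Rad54b was at 1.04 TPM in control replicate 2 against 0.430 to 0.520 TPM, and Blm at 3.503 TPM in control replicate 3 against 1.89 to 2.12 TPM.

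The change at day 5 differed from that at day 1 for 5 genes in the test of the difference itself (limma, Benjamini-Hochberg). These log2 differences of day 5 minus day 1 were 1.96 for Exo1, 1.59 for Rad54b, 1.45 for Eme1, 1.33 for Rad51ap1 (lost in 8 of 13 fits without 1 library, genes tested kept) and 1.27 for Brca1. Every day 5 library lay above every day 1 library for each of the 5. Of all tested genes, 1.41% were called as higher at day 5 than at day 1. Exo1, Rad54b, Eme1 and Brca1 reached the minimum of 1 TPM in 4 libraries only with day 5 libraries, so the count of 5 cannot be read against that share. With the tubule covariate, Brca1 and Rad54b also missed the threshold (adjusted p = 0.102 and 0.064, limma).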

How the results depend on the processing

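No value changed direction past the threshold. The 7 genes called at day 5 became 0 with TPM of at least 1 in every library, a filter that none of the 7 passed and that left 23 members, and 4 with a replicate block (Brca1, Rad54b, Exo1 and Eme1). Leaving out 1 library gave 1 to 8 and, with the genes tested kept (added after the data were seen), 5 to 8. The 5 genes higher at day 5 than at day 1 became 0 with the filter in every library, which none of the 5 passed. With the tubule covariate (also added) 3 members were called, of which Exo1 and Eme1 were among the 5 and Fanca was not. The count was 1 to 5 with 1 library left out (4 to 5 with the genes kept). No alternative called a member at day 1. The median change at day 5, 0.26, was 0.084 with the filter in every library and 0.10 to 0.28 with 1 library left out (0.19 to 0.30 with the genes kept).

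Over all genes, 460 were called at day 5, or 876 by adjusted p alone, and 326 to 474 with 1 library left out. At day 1, 13 were called, or 6 with no filter, 7 without trend, 2 with only both groups compared in the fit, 149 with the block, 0 with the covariate and 3 to 218 with 1 library left out (218 without control replicate 5). Between the days, 259 were called, or 153 with the filter in every library, 417 with only both groups in the fit, 162 with the covariate and 150 to 437 with 1 library left out.

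Replicate numbers did not pair the samples. Deviations from group means of same-numbered libraries correlated at -0.06 to 0.09 across genes in 12 pairs, and 2 of 13 libraries correlated best with their own number. Low TPM and the unknown depth limit the genes under 1 TPM. The cause of these shifts was not tested, except that the stricter filter and the left-out day 5 libraries removed some low genes from testing.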
